A study of Homo sapiens with 6 samples.

Results

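HOX genes encode homeodomain transcription factors that set position along the body axis. In humans they lie in 4 clusters, HOXA on chromosome 7, HOXB on chromosome 17, HOXC on chromosome 12 and HOXD on chromosome 2, and genes with the same number in different clusters are paralogs. Low-numbered genes act towards the head and high-numbered genes towards the tail. In adult cells the pattern is held by chromatin: trithorax-type complexes place the histone mark H3K4me3 at active HOX genes, and polycomb complexes place H3K27me3 at silent ones. RBP2, now named KDM5A, is a demethylase that removes H3K4 methylation.

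The HOX genes were taken as all probe sets whose only annotated symbol was a numbered HOXA, HOXB, HOXC or HOXD gene. That gave 44 probe sets for 28 HOX genes, out of 19775 genes measured with a single-symbol probe set. Of the 39 HOX genes in RefSeq, the other 11 (10 of HOXA, and HOXD3) were not analysed here. Each gene was read by its brightest probe set over 6 arrays, and the remaining 16 probe sets served as a check.

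The arrays measured RNA from H1299, a line established from a human large cell lung carcinoma. All cells were infected with lentivirus and harvested after 72 hours. The virus carried a scramble shRNA (SC) in the control group, or 1 of 2 separate shRNAs against RBP2 (KD1 and KD2), with 2 arrays a group. Whether the arrays of a group came from separate cultures is not stated in the labels, so the p-values rest on a spread between samples that may be technical. Knockdown lowers the transcript without deleting the gene, and the labels do not give the share of infected cells.

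KDM5A itself read 9.35 and 9.42 on the log2 scale in SC, 7.42 and 7.27 in KD1, and 6.66 and 6.72 in KD2. It was 4.11-fold lower with KD1 and 6.46-fold lower with KD2 (limma adjusted p = 0.00475 and 0.00237). The keratins KRT8 and KRT18 and the intermediate filament gene VIM stood above 9 on every array, and the neuroendocrine enolase ENO2 read 7.81 and 8.72 in SC, 7.41 and 7.71 in KD1, and 8.84 and 9.36 in KD2. The lung identity factor NKX2-1 stayed at one value, 2.82, on all arrays. Of 8 markers of leukocytes, endothelium, erythroid cells, fibroblasts and hepatocytes, 7 had a mean under 4, PTPRC, CD3E, CDH5, HBB and COL1A2 were at the lowest value of the table on all arrays, and COL1A1 read 6.20 to 7.02. Their values summed to 21.94 and 22.14 in SC and to 22.01 to 22.78 in the knockdown arrays. In bulk RNA, fewer cells of a type and less RNA per cell cannot be told apart.

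H1299 cells carried signal from most of the HOXB and HOXC genes, without the highest-numbered ones, and little from HOXD. A gene was tested when its mean over the 6 arrays was at least 4, and 16 of the 28 HOX genes (57.1%) met that, against 53.2% of all genes measured. They were 8 of 10 HOXB genes, 6 of 9 HOXC genes, 2 of 8 HOXD genes and 0 of 1 HOXA gene, HOXA2 being the single HOXA gene covered. The tested HOXB genes ran without a gap from HOXB2 to HOXB9, and the tested HOXC genes were all of those from HOXC4 to HOXC10. The authors' values come from GCRMA, which compresses dim probe sets to a floor, and probe sets differ in brightness, so levels are compared between arrays and not between genes.

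**Figure D1:**
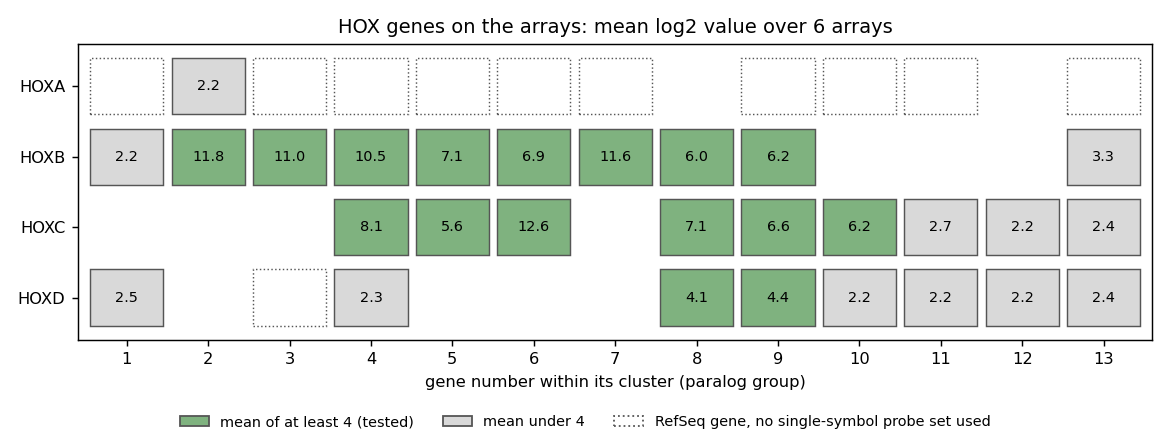
Each box is a human HOX gene, with its cluster in rows and its number in columns, and the figure inside is its mean log2 value over 6 arrays. Green boxes are the 16 genes tested, grey boxes the 12 with a mean under 4, and dotted boxes the 11 genes not analysed. Values in different boxes come from different probe sets and cannot be ranked against each other.

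The 12 HOX genes under that mean stood at or near the floor. They were HOXA2, HOXB1, HOXB13, HOXC11, HOXC12, HOXC13, HOXD1, HOXD4, HOXD10, HOXD11, HOXD12 and HOXD13, with means from 2.24 to 3.29. In 11 of them the whole range over the 6 arrays was under 0.1. HOXB1, a hindbrain gene, and HOXC12, HOXD10, HOXD11 and HOXD12 of the posterior part stood at the table's lowest value, 2.24, on all 6 arrays. HOXC11, HOXC13 and HOXD1 stood at single values of their own, 2.74, 2.44 and 2.46. The exception was HOXB13, a prostate lineage factor, which read 2.94 and 3.42 in SC, 3.34 and 3.42 in KD1, and 3.21 and 3.42 in KD2, so its groups overlapped. No HOX gene with a mean under 4 therefore showed a separation of either shRNA from scramble. With a margin of 0.5 above the lowest value, 9 HOXB, 6 HOXC, 2 HOXD and 0 HOXA genes were off the floor on all arrays. With no margin the counts were 9, 8, 5 and 0. These include HOXC11, HOXC13 and HOXD1, flat at their own values, and HOXD4 and HOXD13, which stood at 1 value on 5 arrays.

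With KD1, the HOXB genes called moved in both directions, and the 1 HOXC gene called rose. Calls here are from the fit without a block for replicate number. A fit with that block added calls against scramble, which are given with the genes concerned. HOXB5, HOXB6 and HOXC8 rose, and HOXB2 and HOXB9 fell, so 5 of 16 were called at a limma adjusted p under 0.05, against 11.5% of all 10526 genes tested. Higher calls were 3 of 16 (3.62% of all genes) and lower calls 2 of 16 (7.9%). The median log2 difference over the 16 was 0.30, with 12 values above 0, and over all tested genes it was 0.0025. With KD2 a single HOX gene was called, HOXB7, which rose, against 31% of all tested genes (16.7% higher and 14.4% lower), so the HOX share was below the background. The HOX median was -0.06 with KD2, with 8 values above 0, and the median over all tested genes was 0.08. Leaving out any SC or KD1 array ended all 5 calls with KD1, leaving out either KD2 array kept that of HOXB9 alone, and leaving out any SC or KD2 array ended that of HOXB7. With no filter on dim genes the counts by limma were 1 (HOXB9) with KD1 and 0 with KD2, where 1 HOX gene had an unadjusted p under 0.05. Of all 19775 genes then fitted, 311 were called with KD1 and 1470 with KD2, where 4610 had an unadjusted p under 0.05.

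**Figure D2:**
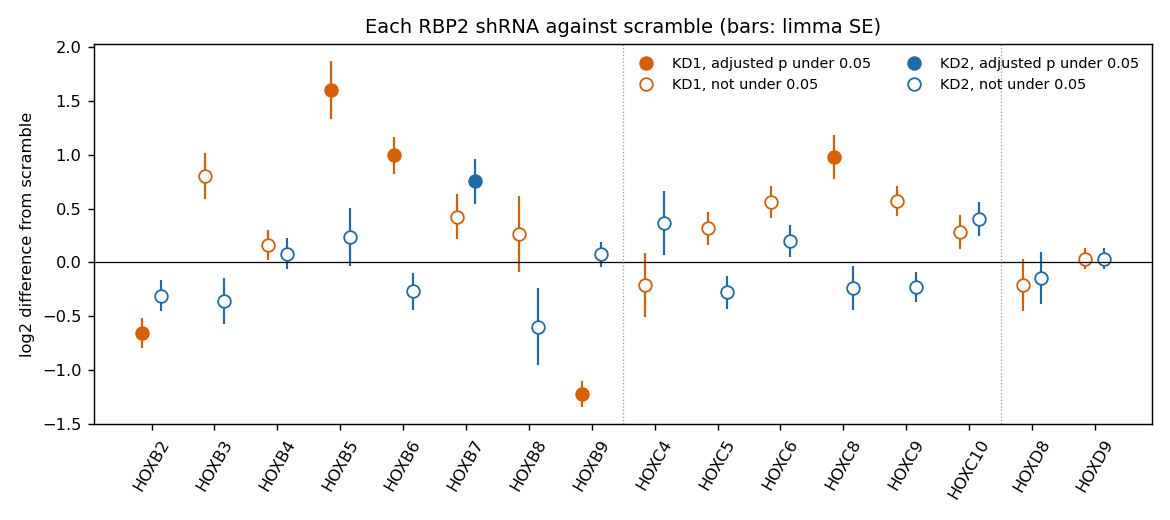
The vertical axis gives the log2 difference of each tested HOX gene from scramble for KD1 (orange) and KD2 (blue), with limma SE as bars, in cluster order along the horizontal axis. Filled points passed an adjusted p under 0.05 in the limma fit without the replicate block: HOXB2, HOXB5, HOXB6, HOXB9 and HOXC8 with KD1, and HOXB7 with KD2.

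HOXB5, which takes part in lung branching and gut innervation, had the largest HOX difference. It read 6.15 and 6.75 in SC, 7.80 and 8.31 in KD1, and 6.62 and 6.75 in KD2. Both KD1 arrays lay above every other array, while KD2 overlapped SC. The rise with KD1 was 1.60 ± 0.27 (SE), or 3.03-fold (limma adjusted p = 0.0287). With KD2 the difference was 0.24 ± 0.27 (adjusted p = 0.539).

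HOXB6, its neighbour, read 6.66 and 6.72 in SC, 7.50 and 7.87 in KD1, and 6.55 and 6.30 in KD2. It rose 1.99-fold with KD1 (0.99 ± 0.17, limma adjusted p = 0.031), and both KD2 arrays lay below both SC arrays without passing (-0.27 ± 0.17, adjusted p = 0.295). HOXB9, a posterior HOXB gene, went the other way with KD1. It read 6.59 and 6.53 in SC, 5.35 and 5.32 in KD1, and 6.74 and 6.53 in KD2. The 2.33-fold fall with KD1 (-1.22 ± 0.12, adjusted p = 0.0102) left the KD1 arrays apart from all others, while KD2 overlapped SC (0.07 ± 0.12, with a 95% interval from -0.23 to 0.38). HOXB5 and HOXB6 thus rose and HOXB9 fell under the same shRNA.

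HOXB2 and HOXB3 pattern the hindbrain. HOXB2 read 12.06 and 12.09 in SC, 11.26 and 11.59 in KD1, and 11.75 and 11.78 in KD2. All 4 knockdown arrays lay below both SC arrays, and the fall passed with KD1 (-0.65 ± 0.14, limma adjusted p = 0.0493) but not with KD2 (-0.31 ± 0.14, adjusted p = 0.161). That call sat at the threshold and ended when each array was centred on its median (adjusted p = 0.0653). HOXB3 read 10.61 and 11.08 in SC, 11.49 and 11.81 in KD1, and 10.37 and 10.60 in KD2. KD1 was the highest group and KD2 the lowest, with log2 differences of 0.80 ± 0.21 (adjusted p = 0.0778) and -0.36 ± 0.21 (adjusted p = 0.261), neither of which passed. With the replicate block both HOXB3 differences passed (limma adjusted p = 0.00987 and 0.0407).

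HOXB7, a growth-promoting HOX gene in several carcinomas, was higher with both shRNAs. It read 11.08 and 11.35 in SC, 11.40 and 11.88 in KD1, and 11.86 and 12.08 in KD2. All 4 knockdown arrays exceeded both SC arrays, and the 1.69-fold rise with KD2 passed (0.75 ± 0.21, limma adjusted p = 0.0496) while that with KD1 did not (0.43 ± 0.21, adjusted p = 0.258). With the replicate block the HOXB7 rise with KD1 passed too (limma adjusted p = 0.0442). HOXB4, known for expanding blood stem cells, read 10.37 and 10.51 in SC, 10.45 and 10.75 in KD1, and 10.51 and 10.53 in KD2. Its 3 groups overlapped, and the 95% intervals ran from -0.20 to 0.52 for KD1 and from -0.28 to 0.44 for KD2. HOXB8 read 5.75 and 6.38 in SC, 6.06 and 6.59 in KD1, and 5.11 and 5.83 in KD2, with replicate 2 higher in every group. Both knockdown groups overlapped SC, at 0.26 ± 0.36 with KD1 and -0.60 ± 0.36 with KD2 (limma adjusted p = 0.68 and 0.259). With the replicate block the HOXB8 fall with KD2 passed (limma adjusted p = 0.00801).

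**Figure D3:**
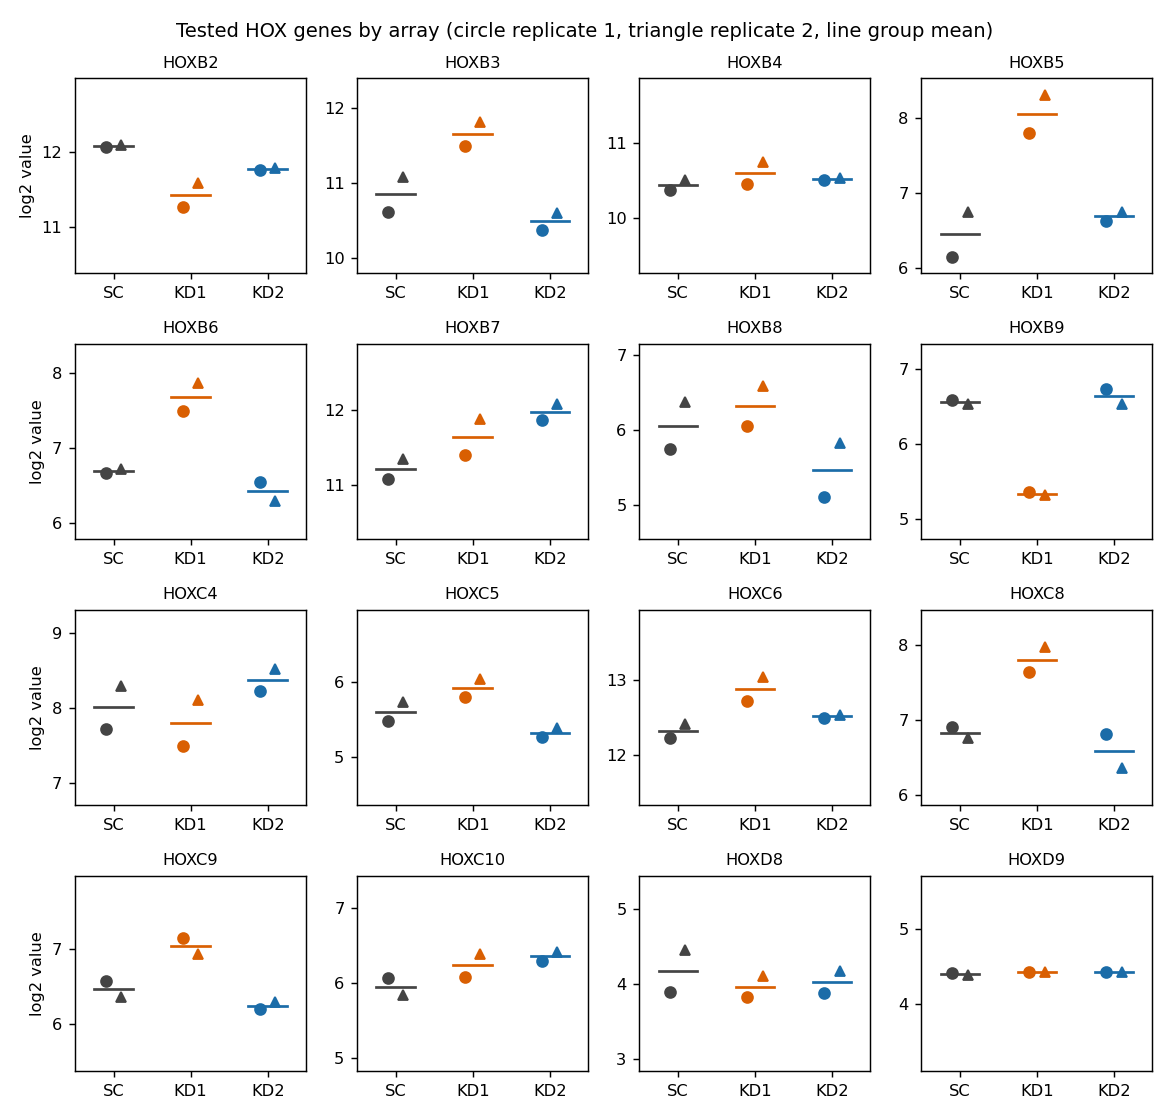
Each panel shows 1 tested HOX gene, with the log2 value of every array by group, replicate 1 as a circle, replicate 2 as a triangle and the group mean as a line. All panels span the same height, so the 1.60 rise of HOXB5 and the 1.22 fall of HOXB9 in KD1 can be set beside the 0.03 difference of HOXD9.

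In HOXC, HOXC8 was the gene called. HOXC8, which specifies brachial motor neurons, read 6.90 and 6.76 in SC, 7.65 and 7.97 in KD1, and 6.82 and 6.37 in KD2. It rose 1.97-fold with KD1 (0.98 ± 0.21, limma adjusted p = 0.0459), and KD2 overlapped SC (-0.24 ± 0.21, adjusted p = 0.417). HOXC9, the thoracic motor neuron factor next to it, read 6.58 and 6.37 in SC, 7.15 and 6.94 in KD1, and 6.20 and 6.29 in KD2. Its groups did not overlap, but neither 0.57 ± 0.14 with KD1 (adjusted p = 0.0637) nor -0.23 ± 0.14 with KD2 (adjusted p = 0.268) passed. With the replicate block the HOXC9 difference with KD1 passed (limma adjusted p = 0.0275). Centring each array on its median brought HOXC9 with KD1 past the threshold (0.61, limma adjusted p = 0.0473). HOXC10, a lumbar gene, read 6.06 and 5.84 in SC, 6.08 and 6.39 in KD1, and 6.30 and 6.41 in KD2. Its differences of 0.29 ± 0.16 and 0.40 ± 0.16 were not called either (limma adjusted p = 0.305 and 0.114), although all 4 knockdown arrays lay above both SC arrays.

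HOXC4, HOXC5 and HOXC6 share 1 annotated gene start in RefSeq, and the stretch before it is shown for that reason. Which transcript each probe set reads, and from which start, is not known from these sources. The 250 bases before that start, in the GRCh38.p14 build on the plus strand at chr12:54016638-54016887, are given 5′ to 3′ with TAAT, the core that homeodomains commonly bind, in capitals.
HOXC4 and HOXC5 promoter: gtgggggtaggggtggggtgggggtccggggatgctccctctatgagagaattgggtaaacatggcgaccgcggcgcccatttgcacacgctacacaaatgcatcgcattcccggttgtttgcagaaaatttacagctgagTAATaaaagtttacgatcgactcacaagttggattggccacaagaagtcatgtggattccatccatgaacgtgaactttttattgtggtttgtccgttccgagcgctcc
TAAT or its complement ATTA occurs in 47.5% of the 34943 RefSeq windows of this length. The letters CCGCCC, a DNA preference reported for the ARID domain of KDM5A, or their complement GGGCGG, which is also the GC box of SP factors, occur in 42.5% of windows and not in this one. The promoter table held windows for 11 of the 28 HOX genes. Only 3 of those 11 genes were tested for expression, and HOXC4 and HOXC5 share 1 window. Of the 11, 9 have TAAT and 4 have CCGCCC on either strand, counts that were not tested against the shares of all windows. These matches describe letters and not binding.

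Read by their own probe sets, none of the 3 genes annotated at that start passed against scramble with either shRNA in the fit without the block. HOXC6, a marker of androgen-responsive and other tumours, read 12.23 and 12.41 in SC, 12.72 and 13.04 in KD1, and 12.50 and 12.53 in KD2. Every knockdown array was above SC, by 0.56 ± 0.15 with KD1 (limma adjusted p = 0.0799) and 0.20 ± 0.15 with KD2 (adjusted p = 0.365), and neither passed. With the replicate block the HOXC6 difference with KD1 passed (limma adjusted p = 0.0242). HOXC5 read 5.48 and 5.74 in SC, 5.80 and 6.05 in KD1, and 5.28 and 5.39 in KD2. It lay above SC with KD1 and below SC with KD2, by 0.32 ± 0.15 and -0.28 ± 0.15 (adjusted p = 0.244 and 0.224). HOXC4, which drives the antibody-diversifying enzyme AID in B cells, read 7.73 and 8.30 in SC, 7.49 and 8.11 in KD1, and 8.23 and 8.53 in KD2. HOXC4 had the reverse order of HOXC5, KD2 highest and KD1 lowest, with both groups overlapping SC (-0.21 ± 0.30 with KD1 and 0.36 ± 0.30 with KD2, limma adjusted p = 0.692 and 0.392).

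HOXD8 and HOXD9 were the only HOXD genes tested, and neither passed in any comparison. HOXD8 read 3.89 and 4.46 in SC, 3.82 and 4.11 in KD1, and 3.89 and 4.17 in KD2, differences from SC of -0.21 ± 0.24 and -0.15 ± 0.24 (limma adjusted p = 0.623 and 0.67). HOXD9 read 4.42 and 4.39 in SC and 4.43 on all 4 knockdown arrays, a value identical on those arrays, so the groups did not overlap but differed by only 0.03 ± 0.10 (limma adjusted p = 0.869 with KD1 and 0.825 with KD2). Its second probe set stood at 2.24 on every array.

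The KD1 and KD2 groups differed from each other in 7 of the 16 HOX genes, against 41.1% of all tested genes, so the HOX share was near the background. HOXB3, HOXB5, HOXB6, HOXC5, HOXC8 and HOXC9 were higher with KD1 (17.8% of all genes were called in that direction) and HOXB9 was lower (23.3%). The differences were 1.16 ± 0.21 for HOXB3 (limma adjusted p = 0.012), 1.36 ± 0.27 for HOXB5 (0.0149), 1.26 ± 0.17 for HOXB6 (0.00543) and 1.22 ± 0.21 for HOXC8 (0.00934). HOXC9 differed by 0.80 ± 0.14 (0.0101) and HOXC5 by 0.60 ± 0.15 (0.0315). HOXB9 differed by -1.30 ± 0.12 (0.00203), 2.46-fold lower with KD1. In all 7 genes the KD1 and KD2 arrays did not overlap, and the same held for HOXB2, HOXB8, HOXC4 and HOXC6, which were not called. The share of all tested genes without such overlap was not computed, so whether this separation is particular to HOX genes is not known. The other 9 ranged from -0.58 (HOXC4) to 0.86 (HOXB8) and did not pass without the replicate block. Leaving out either KD2 array left 3 calls, HOXB6, HOXB9 and HOXC8. KDM5A was lower with KD2 than with KD1, by 0.65 ± 0.11 (adjusted p = 0.0101), and the part of that in the HOX differences was not tested.

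In the mean of both shRNAs against scramble, HOXB9 alone was called among the 16, against 12.5% of all tested genes (5.61% higher and 6.92% lower). Its mean difference was -0.57 ± 0.10 (limma adjusted p = 0.0329), with -1.22 for KD1 and 0.07 for KD2, and the call ended when any 1 array was left out. HOXB2, HOXB5 and HOXB7 stood at -0.48, 0.92 and 0.59 with adjusted p = 0.0655, 0.0646 and 0.095. Both comparisons with scramble use the same SC arrays.

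Replicate 2 read higher than replicate 1 in all 3 groups for 10 of the 16 HOX genes, against 29% of all tested genes. The shift was largest in HOXB8 (mean 0.63), HOXC4 (0.50) and HOXB5 (0.42). With the replicate number as a block in the same limma fit, 9 HOX genes were called with KD1 (29.6% of all genes), 3 with KD2 (50.6%), 5 in the mean of both (34.9%) and 10 between the shRNAs (57.7%). Of these 7 were higher with KD1 (12.8% of all genes) and 2 lower (16.8%), and 1 was higher with KD2 (28.4%) and 2 lower (22.2%). For the mean of both 3 were higher (17.4%) and 2 lower (17.5%), and between KD1 and KD2 8 were higher (25.1%) and 2 lower (32.6%). With the block the KD1 calls gained HOXB3, HOXB7, HOXC6 and HOXC9, all higher (adjusted p = 0.00987, 0.0442, 0.0242 and 0.0275). The KD2 calls gained HOXB3 and HOXB8, both lower (0.0407 and 0.00801). The mean comparison gained HOXB2, HOXB5, HOXB7 and HOXC6 (0.0255, 0.0105, 0.0138 and 0.0378). Between the shRNAs HOXB8 and HOXC6 were added as higher with KD1 and HOXC4 as lower (0.00223, 0.0405 and 0.0131).

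Other probe sets existed for 13 of the 28 genes, and 5 of the 16 reached a mean of 4. For HOXB7 the 2 others gave 0.37 and 0.42 with KD1 and 0.89 and 0.73 with KD2, close to the brightest. For HOXB3 the other gave 0.34 ± 0.15 with KD1 and -0.04 ± 0.15 with KD2, the same order at smaller size. HOXB5 kept its sign in a dimmer probe set that can cross-hybridise, at 0.47 ± 0.21 with KD1, against 1.60 for the brightest. HOXB9 fell less in its dimmer, also cross-hybridising, probe set (-0.35 ± 0.30 with KD1) and stood at 0.61 ± 0.30 with KD2. Its mean over both shRNAs was 0.13 by that probe set, opposite to the brightest. When all probe sets of a gene were averaged, the KD1 calls of HOXB9 (-0.78, limma adjusted p = 0.0663) and HOXB5 (1.03, 0.0537) ended, and HOXB3 passed (0.57, 0.0499). The second probe sets of HOXB6 and HOXB8 stood near 2.24 and at 2.44 on all arrays. The calls of HOXB2 and HOXC8 rest on 1 probe set each.

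**Figure D4:**
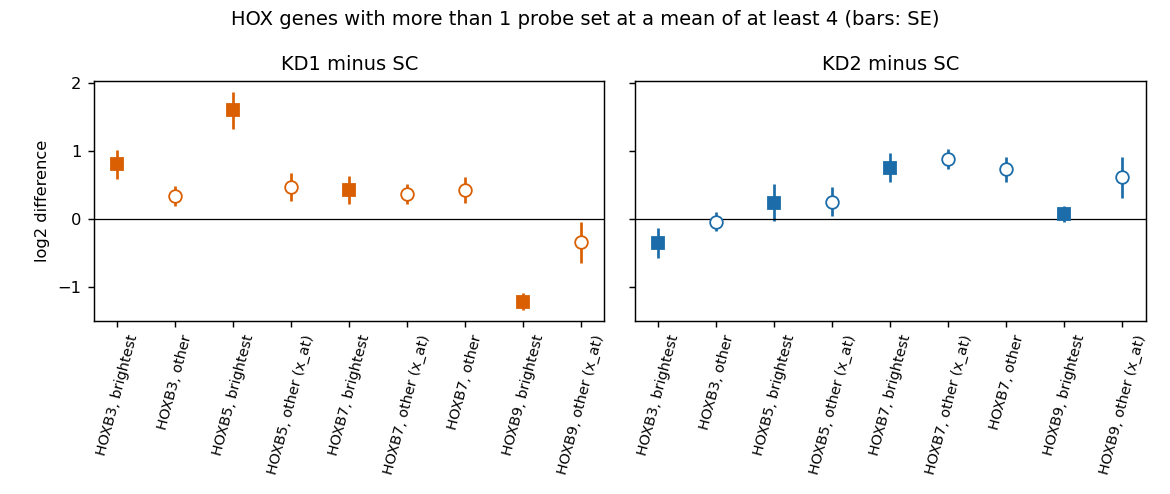
The vertical axis gives log2 differences from scramble with SE for the 4 HOX genes that have more than 1 probe set at a mean of at least 4, with KD1 at left and KD2 at right. Squares are the brightest probe set and open circles the others. The 3 probe sets of HOXB7 lie close together, whereas the dimmer ones of HOXB5 and HOXB9 give smaller differences with KD1.

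Among noncoding transcripts from within the clusters, 12 of the 24 listed had a probe set and 3 were tested. HOXB-AS1, an antisense RNA that starts inside the HOXB2 gene, read 8.53 and 8.08 in SC, 7.63 and 7.66 in KD1, and 7.60 and 7.64 in KD2. All 4 knockdown arrays lay below SC, as for HOXB2, by -0.66 ± 0.17 with KD1 (limma adjusted p = 0.0759) and -0.69 ± 0.17 with KD2 (adjusted p = 0.0388), and the latter passed. With the replicate block the former passed too (adjusted p = 0.0391), as did the mean of both (-0.67, adjusted p = 0.0236, and 0.0502 without the block). Its upstream stretch is given because HOXB-AS1 was the transcript of the HOXB2 to HOXB3 interval that lay as low with both shRNAs. The 250 bases before its start, at chr17:48544101-48544350 on the plus strand of GRCh38.p14, hold neither TAAT nor CCGCCC on either strand.
HOXB-AS1 promoter: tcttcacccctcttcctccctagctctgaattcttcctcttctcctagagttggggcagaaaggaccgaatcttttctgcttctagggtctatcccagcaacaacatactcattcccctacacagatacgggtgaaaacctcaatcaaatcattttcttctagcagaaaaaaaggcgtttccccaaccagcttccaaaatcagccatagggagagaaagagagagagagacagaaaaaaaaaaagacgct

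A probe set annotated to MIR10A, the microRNA gene between HOXB4 and HOXB5, read 8.14 and 8.69 in SC, 8.31 and 8.77 in KD1, and 7.68 and 7.99 in KD2. It lay lowest with KD2 (-0.58 ± 0.26, limma adjusted p = 0.155, and 0.0106 with the replicate block). By their mean, HOXB3, HOXB6, HOXB8, HOXC5, HOXC8 and HOXC9 were lowest with KD2 too. HOXB4 and HOXB5, the HOX genes on either side of it, had their lowest mean in SC. The mature microRNA was not measured, and which longer RNA of the locus the probe set reads is not known from these sources. Its mature product is given from RefSeq with its seed, bases 2 to 8, in capitals.
hsa-miR-10a-5p: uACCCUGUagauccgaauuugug
HOXD-AS2 was the third tested transcript and passed in no comparison. HOTAIR of the HOXC cluster, HAGLROS, HOXA11-AS and HOXC-AS3 stood at the table's lowest value on all 6 arrays.

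The counts of the gene lists that follow are to be read against the 11.5% of all tested genes called with KD1, 31% with KD2 and 41.1% between the shRNAs. By direction these were 3.62% higher and 7.9% lower, 16.7% and 14.4%, and 17.8% and 23.3%. Counts with the block are to be read against shares of their own. These were 29.6% with KD1 (12.8% higher and 16.8% lower), 50.6% with KD2 (28.4% and 22.2%) and 57.7% between the shRNAs (25.1% and 32.6%). The TALE homeobox genes, whose proteins bind DNA jointly with HOX proteins, were read for 8 of 9 members and tested for 5. None passed with KD1, where PBX2 stood at -1.12 ± 0.39 (limma adjusted p = 0.134, and 0.021 with the block). With KD2, PBX3 rose by 0.65 ± 0.11 (adjusted p = 0.0126) and MEIS2 by 0.66 ± 0.18 (adjusted p = 0.0434). Between the shRNAs PBX2 and PBX3 were lower with KD1, by -1.66 and -0.91 (adjusted p = 0.0249 and 0.00355). The median over the 5 was 0.13 with KD1 and 0.53 with KD2.

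Of 24 tested polycomb subunits, 1 was called higher and 4 lower with KD1, 5 higher and 3 lower with KD2, and 3 higher and 6 lower between KD1 and KD2. The total of 5 of 24 with KD1 lay above the 11.5% of all genes, with 7.9% of all genes called lower. The totals of 8 of 24 with KD2 and 9 of 24 between the shRNAs were near the background. Their medians were -0.06, 0.04 and -0.08. JARID2, which recruits the complex that places H3K27me3, rose by 1.23 with KD1 and fell by 0.99 with KD2 (limma adjusted p = 0.00989 and 0.00619). The chromodomain reader CBX7 did the reverse, at -0.73 and 1.37 (0.0466 and 0.00563), and so did the ubiquitin ligase RING1, at -0.83 and 0.91 (0.0353 and 0.0138). Other called subunits passed with 1 shRNA only. PCGF3 was at 0.49 and -1.29 (0.0822 and 0.00495), and AEBP2 at -0.97 and -0.11 (0.0298 and 0.632). RYBP, at 0.32 and 0.96 (0.14 and 0.00623), was the 1 subunit called in the mean of both (0.64, 0.0242). EZH2, the methyltransferase itself, was at -0.23 with KD1 and -1.37 with KD2 (0.753 and 0.0523, and 0.00278 for KD2 with the block). With the block 6 polycomb genes were called higher and 8 lower with KD1, 6 and 5 with KD2, and 6 and 10 between KD1 and KD2.

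Among 13 tested genes of a list of trithorax-type activators and H3K27 demethylases, 1 was called higher with KD1 and 4 with KD2, none lower. Between KD1 and KD2, 1 was called higher and 2 lower. Over both directions together, neither count against scramble exceeded the 11.5% and 31% of all genes. In the higher direction alone both counts lay above the shares of all genes, 3.62% with KD1 and 16.7% with KD2. The absence of lower calls stands against 7.9% and 14.4% of all genes. The core subunit RBBP5 was higher with KD1 than with KD2 by 0.82 (limma adjusted p = 0.0117), and DPY30 and KMT2C were lower, by -0.66 and -1.04 (0.0114 and 0.00943). KMT2B, an H3K4 methyltransferase, rose by 0.83 and 0.62 (limma adjusted p = 0.0209 and 0.0185). KMT2C, KMT2D and DOT1L rose with KD2 by 0.74, 0.66 and 0.83 (0.0318, 0.0326 and 0.049). KMT2A, the classical activator of HOX genes, stood at 0.67 and 0.45 and passed only with the block (0.0108 and 0.0143). The medians over the 13 were 0.25 and 0.23, and the block called 5 higher and 0 lower with KD1 and 6 and 2 with KD2.

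Of the retinoic acid list, which holds the best known inducers of HOX genes, 6 of 16 measured members were tested. The retinal reductase DHRS3 rose with KD2 by 1.01 and the co-regulator NRIP1 fell by 0.95 (limma adjusted p = 0.018 and 0.0148), and none passed with KD1 (with the block 1 was higher and DHRS3, at -0.76, was lower, adjusted p = 0.033). Among 28 other patterning homeobox genes measured, 6 were tested. DLX1 and DLX2, paired forebrain and craniofacial genes, rose with KD1 by 1.10 and 1.44 (adjusted p = 0.0335 and 0.0115), and DLX6 rose with KD2 by 0.94 (adjusted p = 0.00791). Between the shRNAs 5 of the 6 were called. DLX1, DLX2 and SIX4 were higher with KD1 than with KD2, by 1.22, 1.24 and 1.13 (adjusted p = 0.00844, 0.00397 and 0.00712), and DLX6 and MSX1 were lower, by -1.21 and -0.84 (adjusted p = 0.00265 and 0.0438).

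Among genes beside the clusters, at most 2 a list were called with either shRNA. Beside HOXB, CALCOCO2 fell with KD1 (-0.77, limma adjusted p = 0.0357) and the chromatin protein gene CBX1 fell with KD2 (-0.87, 0.0096), 1 of 3 tested in each. Beside HOXC, the repair glycosylase SMUG1 fell with KD1 (-1.12, 0.0375), and CBX5 and HNRNPA1 fell with KD2 (-0.87 and -0.51, 0.021 and 0.0437), out of 7 tested. Beside HOXA, SNX10 fell with KD1 (-0.55, 0.0463), 1 of 4 tested. Beside HOXD, HNRNPA3 fell with KD2 (-0.37, 0.049), 1 of 5 tested. With the block the calls added were in both directions. HNRNPA3 and CALCOCO1 were added as higher with KD1 (0.46 and 0.34, limma adjusted p = 0.024 and 0.0444), and HIBADH and SNX11 as higher with KD2 (0.78 and 0.53, 0.0245 and 0.0185). SKAP2 and COPZ1 were added as lower with KD1 (-0.43 and -0.49, 0.0374 and 0.0452), and ATP5MC2 as lower with KD2 (-0.41, 0.0212).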

How the data were processed

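The authors deposited log2 values, as their range shows. GCRMA is the tool that the submitters' processing notes name, with no version. All 6 arrays, with 54675 probe sets each, were used as deposited. At the table's lowest value stood 37.7% to 38.7% of an array's values, and 0 array pairs were identical. Probe sets were named from the platform annotation (41091 with 1 symbol, of which 41037 matched a RefSeq gene identifier, 1801 with several and 11721 with none). The brightest probe set stood for each gene, and 10526 of 19775 genes with a mean of at least 4 were tested. Dim probe sets lie near a floor, so small differences there are compressed.

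One limma fit (version 3.58.1, R version 4.3.3) over all 6 arrays, with a mean per group, gave 3 residual and 2.09 prior degrees of freedom. Tests were two-sided with Benjamini-Hochberg adjustment over all tested genes, called under 0.05, and errors are limma's moderated SE. The number of arrays limits the precision (median SE 0.17, and 0.14 for the mean of both shRNAs). The fit was tested on simulated data.

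Replicate numbers come from the titles. Arrays of 1 number deviated together from their groups' means in all 3 pairs of groups, as correlations over genes (0.749, 0.512 and 0.535). The main fit nevertheless has no block, and a fit with the replicate number as a block was run as an alternative. HOX calls that the block adds are given with the genes or in the paragraph on replicates.

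The HOX genes, the gene lists and the tests were chosen with earlier results of these data known. Every HOX gene was named. Of each other list the called members with the smallest adjusted p, at most 4 a comparison, or the 2 largest differences where none passed, were eligible for naming. EZH2, KMT2A, MSX1, HOTAIR with its fellow floor transcripts, and the genes beside the clusters that passed only with the block were added after their values were seen. RefSeq promoters and microRNAs are from GRCh38.p14.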

Additional observations from a re-analysis of the deposited data

Results flagged for a closer look

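The responses to KD1 and KD2 differed in 7 HOX genes of 16 by the limma contrast between the shRNAs, a share near the 41.1% of all tested genes called there. The log2 differences, KD1 minus KD2, were 1.16 for HOXB3, 1.36 for HOXB5, 1.26 for HOXB6, -1.30 for HOXB9, 0.60 for HOXC5, 1.22 for HOXC8 and 0.80 for HOXC9. HOXB3, HOXB6, HOXC5, HOXC8 and HOXC9 had values of opposite sign against scramble under the 2 shRNAs. Of these, HOXB6 and HOXC8 passed with KD1 and none with KD2 in the fit without the block. With the block HOXB3 passed with both shRNAs, and HOXC9 passed with KD1. HOXB9 also had opposite signs, with the fall in KD1 the one that passed. HOXB5 was above scramble with both. Leaving out any 1 array kept the calls of HOXB6, HOXB9 and HOXC8, whose adjusted p ranged from 0.0167 to 0.0414, from 0.01 to 0.0225 and from 0.0265 to 0.0477.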

How the results depend on the processing

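With the replicate block the counts were 9 with KD1, 3 with KD2 and 5 for the mean of both, in place of 5, 1 and 1, and the 10 between the shRNAs stayed within 1.5 times the 7. With no filter on dim genes they were 1, 0, 0 and 3, with 311, 1470, 332 and 2477 of all genes called in place of 1213, 3264, 1318 and 4327. That limma fit covered all 28 HOX genes and 19775 genes. At an unadjusted p under 0.05 it held 8, 1, 5 and 7 HOX genes, and 3026, 4610, 3445 and 5291 of all genes. With the arrays of KD1 and SC alone, 1 HOX gene was called, with 191 of all genes. For the mean of both, 2 HOX genes were called at a mean of at least 6, 2 by eBayes with a trend, and 0 with all probe sets averaged. Of all genes 1400, 1380 and 1165 were called in those fits. With all probe sets averaged, 5 HOX genes and 3102 of all genes had an unadjusted p under 0.05 by limma. Over the 6 fits that leave out 1 array each, HOX calls ranged from 0 to 1 with KD1, 0 to 1 with KD2, 0 to 0 for the mean and 3 to 7 between the shRNAs, where all genes called ranged from 0 to 191, 624 to 2928, 0 to 457 and 1874 to 3718. The KD1 count was 0 without either SC array or either KD1 array, and 1 (HOXB9) without either KD2 array. The KD2 call of HOXB7 was lost without any SC or KD2 array. The count between the shRNAs was 3 without either KD2 array. The limma fits that leave out 1 array have 1 residual degree of freedom less.

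No called HOX value changed sign under any of these settings. The block, the filters and the trend leave the estimate itself as it is, so they could not turn a sign. By its second probe set alone, HOXB9 stood at 0.13 for the mean of both shRNAs, opposite to the called -0.57. When 1 array was left out, signs turned for uncalled values. With KD1 the ranges were -0.051 to 0.58 in HOXB8, -0.52 to 0.10 in HOXC4 and -0.49 to 0.078 in HOXD8. With KD2 they were -0.065 to 0.54 in HOXB5, -0.028 to 0.18 in HOXB9 and -0.43 to 0.14 in HOXD8. For the mean they were -0.011 to 0.46 in HOXB3, -0.48 to 0.15 in HOXB8, -0.21 to 0.36 in HOXC4, -0.11 to 0.15 in HOXC5 and -0.46 to 0.11 in HOXD8. Between the shRNAs they were -0.067 to 0.23 in HOXB4, -0.27 to 0.037 in HOXC10 and -0.20 to 0.080 in HOXD8. Signal near the floor limits what can be said of HOXD and of the 12 HOX genes with a mean under 4.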
